A study of Rattus norvegicus with 12 samples.

Results

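The enzymes and carriers described here make fatty acids from carbohydrate in the liver and pass them on to glycerolipid synthesis. They are Slc25a1, Acly, Acaca, Acacb, Me1, Fasn and Gpam, chosen by gene symbol for their place in the pathway, with earlier results of these data known. Their counts beside the shares of all probe sets are therefore descriptions. All 7 were measured, among 4736 genes in the series, and were read by 18 of the 8740 probe sets tested: 2 for Fasn, 1 each for Acaca, Acacb and Slc25a1, 3 for Acly, 5 for Me1 and 5 for Gpam. A probe set is a group of short probes on the array meant to read a transcript, and it was assigned to a gene only where the platform annotation gave it that symbol alone. Probe sets of a gene are not independent readings. Pairs that share the stem of their name had Pearson correlations over the 12 arrays from 0.83 (U36771 pair of Gpam) to 0.95 (rc_AI171506 pair of Me1).

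Livers came from male Sprague-Dawley rats that weighed 150 g at the start and received 17% more than their total calories for 21 days through a cannula into the stomach (total enteral nutrition). The 4 diets were 70% corn oil, 5% corn oil, 70% olive oil and 5% olive oil, with 3 arrays each, and every array held RNA from a pool of livers. The diets were isocaloric, so that a diet of 70% fat also held less carbohydrate than a diet of 5% fat, and both differences are part of every fat effect given here. No chow-fed or normally fed group was analysed here, so all 4 diets share the overfeeding.

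In this pathway citrate leaves the mitochondrion through the carrier Slc25a1 and is cleaved to acetyl-CoA by ATP citrate lyase (Acly). Acetyl-CoA carboxylase makes malonyl-CoA, with Acaca as the cytosolic form that feeds synthesis and Acacb as the form at the mitochondrial membrane whose product restrains fatty acid oxidation. Fatty acid synthase (Fasn) builds palmitate with NADPH, part of which malic enzyme (Me1) supplies, and the mitochondrial glycerol-3-phosphate acyltransferase Gpam joins fatty acids to glycerol phosphate. In rodent liver the genes of this pathway are known to be turned up by carbohydrate and insulin and turned down by fasting and by dietary polyunsaturated fatty acids, of which corn oil is a rich source, whereas olive oil is rich in monounsaturated oleic acid.

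Every value below is on the log2 scale and is the difference from that probe set's own median over the 12 arrays, so no absolute level is known and levels cannot be compared between probe sets. A probe set was called where its adjusted p (limma, Benjamini-Hochberg over 8740 probe sets) was under 0.05. The arrays also carry controls that read the 3' and the 5' end of actin and of GAPDH, and their 3' minus 5' value, called the 3'/5' index here, rises as RNA or its labelling becomes less complete. It averaged 0.71 ± 0.48 with 70% corn oil, 1.28 ± 0.28 with 5% corn oil, -0.35 ± 0.10 with 70% olive oil and -0.36 ± 0.06 with 5% olive oil (SD, n = 3 arrays each). Between the 6 corn oil arrays and the 6 olive oil arrays the index differed by 1.35 (exact permutation test, two-sided p = 0.00216), so the index and the oil moved together. When the index was added to the model, 0 of the 18 probe sets and 0 of all 8740 were called in either comparison of the oils (limma). In that fit the median SE of the 18 was 0.30 at 70% fat and 0.43 at 5% fat, against 0.16 without the index. The 70% minus 5% difference of the index was -0.56 for corn oil arrays (two-sided exact permutation p = 0.2) and 0.018 for olive oil arrays (p = 0.8), in a test of 3 against 3 whose smallest p is 0.1.

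With corn oil, 6 of the 18 probe sets fell at 70% fat and 0 rose, where 0.801% of all probe sets were called lower and 1.3% higher. With olive oil, 5 of 18 fell and 0 rose, where 0.309% of all probe sets were called lower and 0.126% higher. Probe sets of Fasn, Acly and Me1 fell with both oils, and that of Acaca fell with olive oil. Me1 had 3 of its 5 probe sets called with corn oil and 1 of 5 with olive oil, and as 1 value per gene its change was -1.15 with corn oil (adjusted p = 0.0405) and -1.22 with olive oil (adjusted p = 0.0680). The median change of the 18 was -0.18 with corn oil and -0.61 with olive oil, against -0.0075 and 0.03 over all probe sets. Arrays of the 70% and 5% diets did not overlap, with 70% lower, for 6 of 18 probe sets with corn oil (10.4% of all probe sets) and for 13 of 18 with olive oil (7.01% of all). In whole liver RNA, fewer cells of a type and less RNA per cell cannot be told apart.

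**Figure D1:**
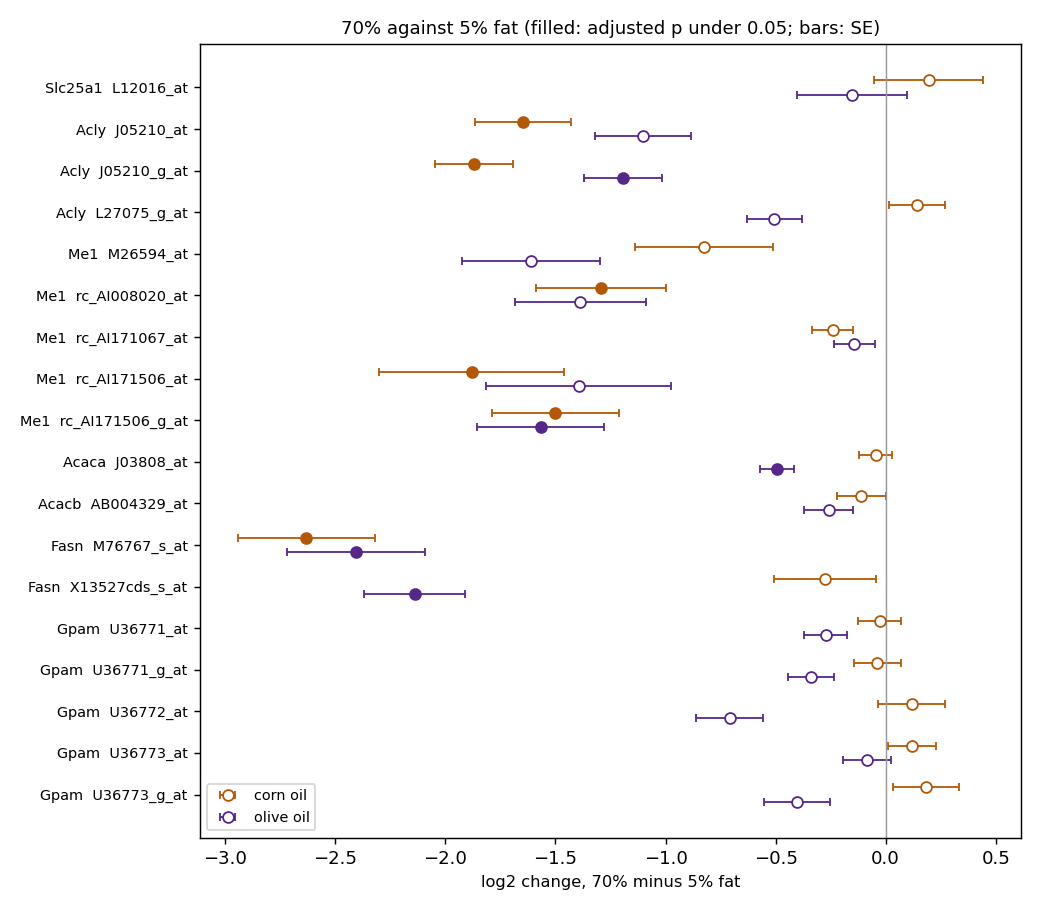
Log2 change at 70% against 5% fat (x axis) for each of the 18 probe sets (rows), with corn oil and with olive oil; bars are the standard error of the model and filled points have an adjusted p under 0.05. The first Fasn probe set lies near -2.63 with corn oil and -2.41 with olive oil, while the second lies near -0.28 with corn oil and -2.14 with olive oil.

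Acly, which supplies the cytosolic acetyl-CoA, had 3 probe sets. J05210_g_at was at -0.72, -1.33 and -1.15 in the 3 pools of 70% corn oil, against 1.02, 0.55 and 0.84 in those of 5% corn oil. It was at -0.54, -0.91 and -0.41 with 70% olive oil, against 0.69, 0.62 and 0.41 with 5% olive oil. All 6 arrays of 70% fat lay below all 6 arrays of 5% fat. The fall was -1.87 ± 0.18 (SE) with corn oil, 3.65-fold (adjusted p = 0.000192), and -1.19 ± 0.18 with olive oil, 2.29-fold (adjusted p = 0.0118). The call with olive oil was lost without pool 1 of 5% olive oil, pool 1 of 70% olive oil or pool 2 of 70% olive oil, with an adjusted p of up to 0.0764.

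The second probe set of Acly, J05210_at, was at -0.86, -1.40 and -1.69 with 70% corn oil, against 0.47, 0.0022 and 0.52 with 5% corn oil. With olive oil it was at -0.41, -0.63 and -0.0022 at 70% fat, against 0.90, 0.79 and 0.57 at 5% fat. The arrays of both fat levels were apart with either oil. J05210_at fell by 1.65 with corn oil (SE 0.22, adjusted p = 0.0024), and its change with olive oil was -1.10 ± 0.22 (adjusted p = 0.0571), which passed without any 1 of 4 arrays (pools 1, 2 or 3 of 70% corn oil, or pool 3 of 70% olive oil), with an adjusted p down to 0.0267. The remaining probe set, L27075_g_at, had no call with either oil: its change was 0.14 ± 0.13 with corn oil (adjusted p = 0.600) and -0.51 ± 0.13 with olive oil (adjusted p = 0.165).

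The promoters of Acly and Me1, whose transcripts fell with fat, and that of Gpam, which had no call in either fat effect without the index, are shown for the letters they hold. Each line runs 5′ to 3′ from 250 bases before to 50 bases after the annotated start of the gene, from RefSeq on build GRCr8, and 5 of the 7 genes had an entry. Where transcription begins was not checked. In Me1 the 50 bases after the start open with atg, the codon that opens a protein. The start given for Me1 may thus be that of the protein, and its window may then hold transcribed bases and not match those of Acly and Gpam in place. Capitals mark the letters CCAAT (the CCAAT box) and GGGCGG (the GC box) on either strand. Acly lies at chr10:85963582-85963881, Me1 at chr8:96540195-96540494 and Gpam at chr1:264175862-264176161, all on the minus strand.
Acly: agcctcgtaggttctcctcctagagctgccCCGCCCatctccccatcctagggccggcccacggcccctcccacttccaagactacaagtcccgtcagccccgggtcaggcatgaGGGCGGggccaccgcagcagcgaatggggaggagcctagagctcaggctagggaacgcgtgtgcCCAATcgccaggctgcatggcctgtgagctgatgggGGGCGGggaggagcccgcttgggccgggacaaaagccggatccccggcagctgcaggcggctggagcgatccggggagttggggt
Me1: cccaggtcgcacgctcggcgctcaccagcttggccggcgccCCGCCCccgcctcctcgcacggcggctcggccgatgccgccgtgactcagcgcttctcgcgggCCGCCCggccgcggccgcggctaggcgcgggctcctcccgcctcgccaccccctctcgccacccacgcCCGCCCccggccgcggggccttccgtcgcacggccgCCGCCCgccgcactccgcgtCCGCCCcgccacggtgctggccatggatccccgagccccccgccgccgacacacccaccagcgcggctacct
Gpam: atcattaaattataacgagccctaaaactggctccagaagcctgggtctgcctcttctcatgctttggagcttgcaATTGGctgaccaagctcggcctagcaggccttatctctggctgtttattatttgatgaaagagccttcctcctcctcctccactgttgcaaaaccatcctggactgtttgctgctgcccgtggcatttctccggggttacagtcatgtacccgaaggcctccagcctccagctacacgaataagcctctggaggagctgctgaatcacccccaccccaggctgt
Acly held 1 CCAAT and 3 GGGCGG matches, Me1 held 0 and 5, and Gpam held 1 and 0, with no match overlapping another. Over all 33469 promoters of the table, 37.5% held CCAAT and 33.1% held GGGCGG. The E-box CACGTG, held by 6.42% of all promoters, and the sterol regulatory element TCACNCCAC, held by 1.12%, were searched on both strands as well, and these letters are in none of the 5 windows. Of the other members with an entry, the promoter of Slc25a1 held 2 CCAAT and 4 GGGCGG matches and that of Acacb held 1 and 0. The share of G and C was 69% in Acly, 81.7% in Me1 and 52.7% in Gpam, against a median of 51.7% over all promoters. A match is a description of the letters and was not tested against the changes.

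Acaca, the carboxylase that makes malonyl-CoA for synthesis, was read by J03808_at. It was at -0.23, -0.30 and -0.22 with 70% corn oil, against -0.12, -0.28 and -0.23 with 5% corn oil. Acaca was at 0.18, 0.12 and 0.25 with olive oil at 70% fat, against 0.68, 0.68 and 0.66 at 5% fat. The corn oil arrays overlapped between fat levels, and the olive oil arrays did not. Acaca fell by 0.49 with olive oil (SE 0.08, 1.41-fold, adjusted p = 0.0145), and its change with corn oil was -0.05 ± 0.08 (adjusted p = 0.806). The call with olive oil was lost without any 1 of 5 arrays (pools 1, 2 or 3 of 5% olive oil, or pools 1 or 2 of 70% olive oil), with an adjusted p of up to 0.0882, and with a trend and robust moderation of the variances.

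Acacb, the form tied to control of oxidation, was at -0.04, -0.12 and -0.32 with 70% corn oil, against -0.0088, -0.08 and -0.06 with 5% corn oil. It was at 0.0088, 0.04 and 0.34 with 70% olive oil, against 0.54, 0.27 and 0.34 with 5% olive oil. The fat levels overlapped with either oil. The changes, -0.11 ± 0.11 with corn oil (adjusted p = 0.654) and -0.26 ± 0.11 with olive oil (adjusted p = 0.557), did not pass the test.

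**Figure D2:**
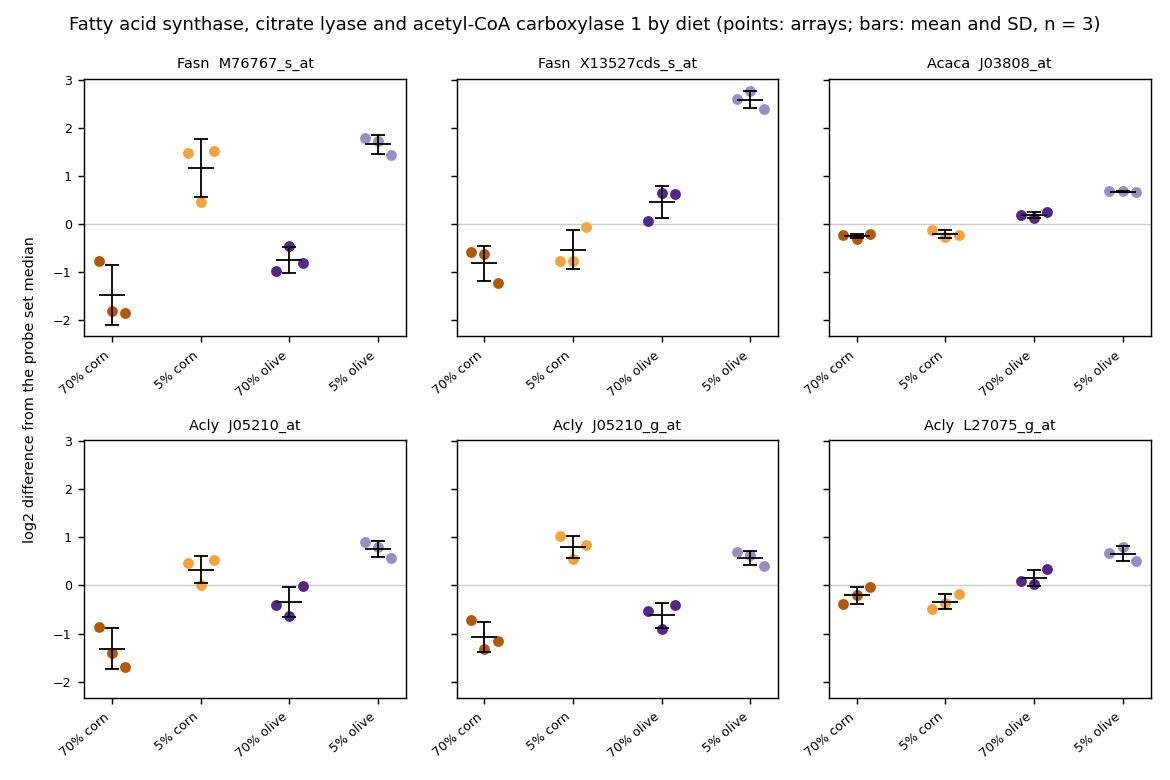
Log2 difference from the probe set's median (y axis) by diet (x axis) for Fasn, Acly and Acaca; each point is 1 array and bars are the mean and SD of 3 arrays. The first Fasn probe set averages -1.48 with 70% corn oil against 1.16 with 5% corn oil, and -0.75 with 70% olive oil against 1.66 with 5% olive oil.

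Fasn, which builds the fatty acid chain, had the largest falls among the members with either oil. M76767_s_at was at -0.76, -1.81 and -1.85 with 70% corn oil, against 1.48, 0.46 and 1.52 with 5% corn oil. It was at -0.97, -0.46 and -0.82 with 70% olive oil, against 1.79, 1.73 and 1.44 with 5% olive oil. All 6 arrays of 70% fat lay below all 6 arrays of 5% fat. M76767_s_at fell by 2.63 with corn oil (SE 0.31, 6.20-fold, adjusted p = 0.00125) and fell by 2.41 with olive oil (SE 0.31, 5.30-fold, adjusted p = 0.00588). It ranked 4 by size among the 70 probe sets that fell with corn oil and 4 among the 27 that fell with olive oil, and both calls held without any 1 of the 12 arrays and in the 6 other settings.

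The second Fasn probe set, X13527cds_s_at, fell with olive oil. It was at -0.58, -0.63 and -1.23 with 70% corn oil, against -0.78, -0.77 and -0.07 with 5% corn oil. With olive oil it was at 0.07, 0.65 and 0.63 at 70% fat, against 2.61, 2.77 and 2.40 at 5% fat. The corn oil arrays overlapped between fat levels, and the 3 arrays of 5% olive oil stood above all others. X13527cds_s_at fell by 2.14 with olive oil (SE 0.23, 4.41-fold, adjusted p = 0.00113), and its change with corn oil was -0.28 ± 0.23 (adjusted p = 0.578). The difference between its fat effects, corn minus olive, was 1.86 ± 0.33 and did not pass the test (adjusted p = 0.255); without pool 3 of 5% corn oil it did (adjusted p = 0.0272).

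The difference between the Fasn probe sets was uneven over the diets. M76767_s_at minus X13527cds_s_at was -0.66 on average with 70% corn oil and 1.69 with 5% corn oil, against -1.20 with 70% olive oil and -0.94 with 5% olive oil. The 3 arrays of 5% corn oil, from 1.23 to 2.26, were the ones apart. Over the 12 arrays, which share diet groups, the Pearson correlation of the Fasn pair was 0.61 (n = 12, a description). Averaged to 1 value per gene, Fasn was at a change of -1.45 with corn oil (adjusted p = 0.00917) and -2.27 with olive oil (adjusted p = 0.000891), a mean of unlike probe sets. The positions of the probes in the transcript were not used here.

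Me1, a source of NADPH, had 5 probe sets. rc_AI171506_g_at was at -1.14, -0.59 and -1.98 with 70% corn oil, against 0.43, 0.08 and 0.28 with 5% corn oil. It was at -0.73, -0.77 and -0.08 with 70% olive oil, against 1.25, 0.81 and 1.07 with 5% olive oil. With either oil the 70% arrays lay below the 5% arrays. It fell 2.83-fold with corn oil (SE 0.29 on the log2 scale, adjusted p = 0.0230) and fell by 1.57 with olive oil (SE 0.29, 2.96-fold, adjusted p = 0.0405). The corn oil call was lost without pool 1 or pool 2 of 5% corn oil (adjusted p at most 0.0964) and when only the corn oil arrays were fitted, and the olive oil call was lost without any 1 of 9 arrays, namely any pool of 5% corn oil or 5% olive oil, pool 1 of 70% corn oil, or pools 1 or 2 of 70% olive oil (adjusted p up to 0.221), as well as with each array centred and with the replicate block.

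Other probe sets of Me1 had changes of like size that held in fewer settings. rc_AI171506_at was at -0.87, -0.63 and -2.67 with 70% corn oil, against 0.93, 0.25 and 0.28 with 5% corn oil, and pool 3 of 70% corn oil was the lowest by far. It fell by 1.88 with corn oil (SE 0.42, adjusted p = 0.0427), and rc_AI008020_at fell by 1.29 (SE 0.30, adjusted p = 0.0463). The corn oil call of rc_AI171506_at was lost without any 1 of 8 arrays (pools 1 or 2 of 5% corn oil, or any olive oil pool; adjusted p up to 0.151), with each array centred, with the index in the model and with the corn oil arrays alone. That of rc_AI008020_at was lost without any 1 of 9 arrays (any pool of 5% corn oil, pools 2 or 3 of 5% olive oil, pools 1 or 3 of 70% corn oil, or pools 1 or 2 of 70% olive oil; adjusted p up to 0.160) and in each of the 6 other settings run. The corn oil changes with the index in the model were -2.39 ± 0.52 for rc_AI171506_at (adjusted p = 0.0941) and -1.65 ± 0.37 for rc_AI008020_at (adjusted p = 0.104). Both were larger falls than without the index, with a larger SE. With olive oil and without the index the changes were -1.40 ± 0.42 for rc_AI171506_at (adjusted p = 0.299), -1.39 ± 0.30 for rc_AI008020_at (adjusted p = 0.0729) and -1.61 ± 0.31 for M26594_at (adjusted p = 0.0535). M26594_at itself was at -0.84, -0.11 and -1.26 with 70% corn oil, against 0.42, -0.26 and 0.11 with 5% corn oil, and at -0.17, -0.16 and 0.82 with 70% olive oil, against 2.06, 1.54 and 1.72 with 5% olive oil. Its arrays overlapped between fat levels with corn oil and not with olive oil, and its olive oil change passed when pool 3 of 70% olive oil, or pool 2 or 3 of 70% corn oil, was left out (adjusted p down to 0.0136). The fifth, rc_AI171067_at, varied little, with changes of -0.24 with corn oil and -0.14 with olive oil, neither called.

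Slc25a1, the citrate carrier, had no call in either fat effect. L12016_at was at -0.32, 0.17 and -1.03 with 70% corn oil, against -0.84, -0.66 and -0.26 with 5% corn oil. It was at 0.12, -0.07 and 0.22 with 70% olive oil, against 0.50, 0.07 and 0.17 with 5% olive oil. The fat levels overlapped with both oils, and the spread within 70% corn oil (SD 0.60, n = 3) exceeded the change of 0.20 ± 0.25 there (adjusted p = 0.736). With olive oil the change was -0.15 ± 0.25 (adjusted p = 0.945).

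**Figure D3:**
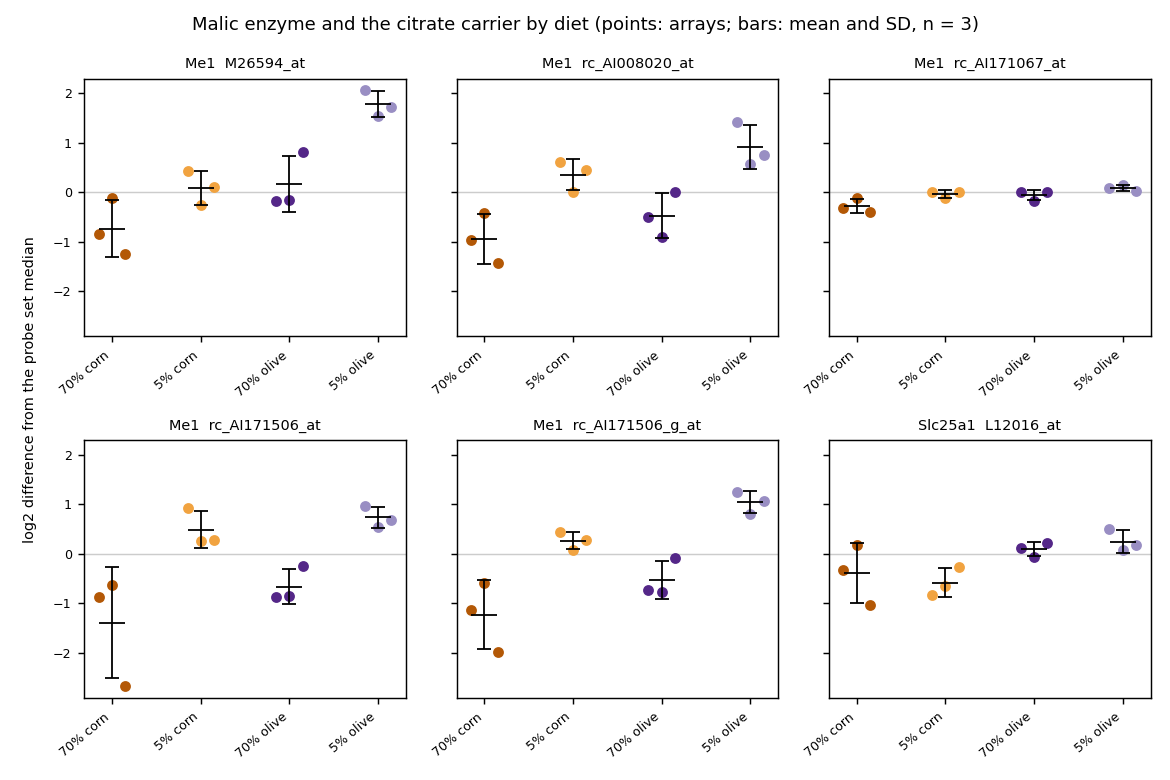
Log2 difference from the probe set's median (y axis) by diet (x axis) for the 5 probe sets of Me1 and the 1 of Slc25a1; each point is 1 array and bars are the mean and SD of 3 arrays. For rc_AI171506_g_at the means are -1.24 with 70% corn oil against 0.26 with 5% corn oil, and -0.52 with 70% olive oil against 1.04 with 5% olive oil.

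Gpam, which uses the fatty acids for glycerolipids, had 5 probe sets and no call in either fat effect without the index. U36772_at was at -0.44, -0.16 and -0.67 with 70% corn oil, against -0.56, -0.57 and -0.49 with 5% corn oil. It was at 0.16, 0.33 and 0.50 with 70% olive oil, against 1.31, 1.02 and 0.77 with 5% olive oil. The corn oil diets overlapped and the olive oil diets did not. Its change was 0.12 ± 0.15 with corn oil (adjusted p = 0.736) and -0.71 ± 0.15 with olive oil (adjusted p = 0.0729), which passed without pool 2 or pool 3 of 70% corn oil (adjusted p down to 0.0351). With the index in the model the olive oil change of U36772_at was called (-0.70 ± 0.14, adjusted p = 0.0427). The 5 probe sets ranged from -0.04 to 0.18 with corn oil and from -0.71 to -0.09 with olive oil.

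**Figure D4:**
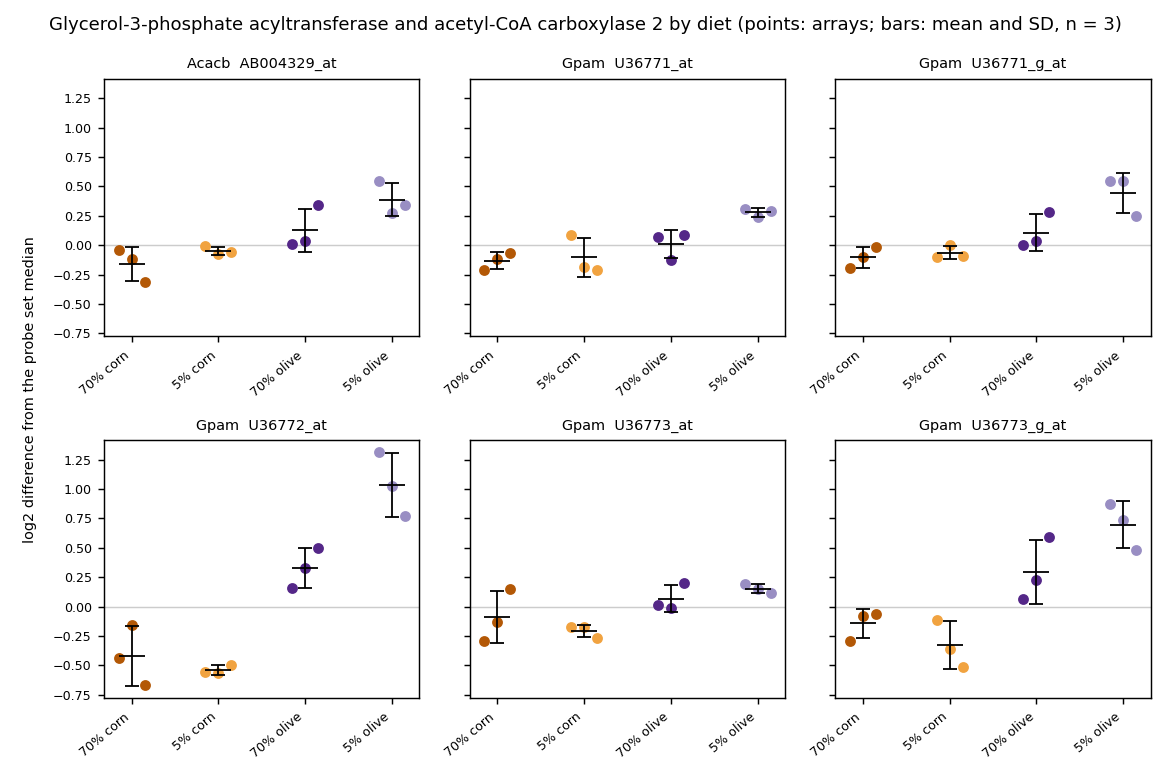
Log2 difference from the probe set's median (y axis) by diet (x axis) for Acacb and the 5 probe sets of Gpam; each point is 1 array and bars are the mean and SD of 3 arrays. U36772_at averages -0.42 with 70% corn oil and -0.54 with 5% corn oil, against 0.33 with 70% olive oil and 1.04 with 5% olive oil.

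The mean of both fat effects, which rests on all 12 arrays, called 9 of 18 probe sets lower and 0 higher, where 1.03% of all probe sets were called lower and 1.25% higher. These were both of Fasn, that of Acaca, J05210_at and J05210_g_at of Acly, and 4 of the 5 of Me1. The largest was M76767_s_at of Fasn, which fell by 2.52 (adjusted p = 5.9e-05), and the smallest was Acaca, which fell by 0.27 (adjusted p = 0.0205). With the index in the model 8 of 18 were called, where 1.41% of all probe sets were called in either direction, and Acaca was not called (adjusted p = 0.0986). The call of Acaca was also lost without any 1 of 5 arrays (pools 1 or 2 of 5% olive oil, pool 2 of 70% corn oil, or pools 1 or 2 of 70% olive oil), with an adjusted p of up to 0.0600, and with a trend and robust moderation. With the index in the model, 4 probe sets were called lower with corn oil (M76767_s_at of Fasn, the J05210 pair of Acly and rc_AI171506_g_at of Me1), where 0.458% of all probe sets were called in either direction. With olive oil 7 were called lower (both of Fasn, that of Acaca, J05210_g_at of Acly, M26594_at and rc_AI171506_g_at of Me1, and U36772_at of Gpam), where 0.732% of all were called in either direction. Adding the index turned the sign for 4 of 18 probe sets with corn oil, each without a call, and for 0 of 18 with olive oil.

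The test of whether the fat effect differed between the oils called 0 of 18 probe sets and 0 of 8740 by limma. At an unadjusted p under 0.05 there were 6 of 18, where 11.8% of all probe sets reached it. The smallest adjusted p among the members was 0.255 and the smallest of all probe sets was 0.0790. A call of Acaca or X13527cds_s_at with olive oil and not with corn oil is thus not shown to be a difference between the oils.

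Between the oils at 5% fat, 11 of 18 probe sets were lower with corn oil and 0 higher, where 9.36% of all probe sets were called lower and 10.1% higher. X13527cds_s_at of Fasn was 8.75-fold lower with 5% corn oil than with 5% olive oil (log2 difference -3.13 ± 0.23, adjusted p = 3.57e-05), and Acaca was 1.84-fold lower (-0.88 ± 0.08, adjusted p = 6.55e-05). L27075_g_at of Acly differed by -1.01 ± 0.13 (adjusted p = 0.000335), M26594_at of Me1 by -1.68 ± 0.31 (adjusted p = 0.00294), Slc25a1 by -0.83 ± 0.25 (adjusted p = 0.0337) and Acacb by -0.43 ± 0.11 (adjusted p = 0.0172). All 5 Gpam probe sets were lower, from -1.57 for U36772_at (adjusted p = 0.000111) to -0.36 for U36773_at (adjusted p = 0.0354). M76767_s_at of Fasn was at -0.50 ± 0.31 (adjusted p = 0.299) and J05210_g_at of Acly at 0.23 ± 0.18 (adjusted p = 0.406), without a call.

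Single arrays decided 4 of these 11 calls. U36773_at of Gpam lost its call without any 1 of the 6 arrays of 5% fat (adjusted p up to 0.105), and Slc25a1 with the replicate block, or without pools 1 or 2 of 5% corn oil or any of the 3 pools of 5% olive oil (adjusted p up to 0.124). For U36771_at of Gpam those arrays were pools 2 and 3 of 5% corn oil and pool 1 of 5% olive oil (adjusted p up to 0.0622). For Acacb they were pool 2 of 5% corn oil and pool 1 of 5% olive oil (adjusted p up to 0.0758).

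At 70% fat, 4 of 18 were lower with corn oil and 0 higher, where 4.55% of all probe sets were called lower and 3.96% higher. X13527cds_s_at of Fasn differed by -1.26 ± 0.23 (adjusted p = 0.00816), Acaca by -0.43 ± 0.08 (adjusted p = 0.0071), J05210_at of Acly by -0.97 ± 0.22 (adjusted p = 0.0193) and U36772_at of Gpam by -0.75 ± 0.15 (adjusted p = 0.0120). Arrays of the oils did not overlap, with corn lower, for 8 of 18 probe sets at 70% fat (13.4% of all) and for 14 of 18 at 5% fat (16.2% of all). J05210_at lost its call without pool 3 of 70% corn oil or pools 1 or 3 of 70% olive oil (adjusted p up to 0.0792), after a second quantile normalization and with the 70% arrays alone, and U36772_at without pool 3 of 70% olive oil (adjusted p = 0.0564). X13527cds_s_at lost its call with a trend and robust moderation of the variances.

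With the index in the model, the difference at 5% fat was -1.98 ± 0.52 for X13527cds_s_at, -1.06 ± 0.20 for Acaca and -0.95 ± 0.37 for U36772_at, none called (adjusted p = 0.823 each), while that of Slc25a1 was 0.78 ± 0.45, of the opposite sign. The difference of M26594_at of Me1 at 5% fat was -0.32 ± 0.75 with the index, against -1.68 without it, and that of X13527cds_s_at at 70% fat was -0.52 ± 0.37, against -1.26. The sign turned for 6 of 18 probe sets at 5% fat and 4 of 18 at 70% fat, with 3 probe sets of Me1 and the 1 of Slc25a1 turned at both, such as rc_AI171506_g_at of Me1 at 5% fat (0.69 ± 0.65 with the index, against -0.78). At an unadjusted p under 0.05 that fit had 5 of 18 at 5% fat, against 5.97% of all probe sets, and 3 of 18 at 70% fat, against 7.99% of all. The median SE of the members in it was 0.43 at 5% fat and 0.30 at 70% fat, against 0.16 without the index. What the index tracks cannot be told apart from the oil in these differences.

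**Figure D5:**
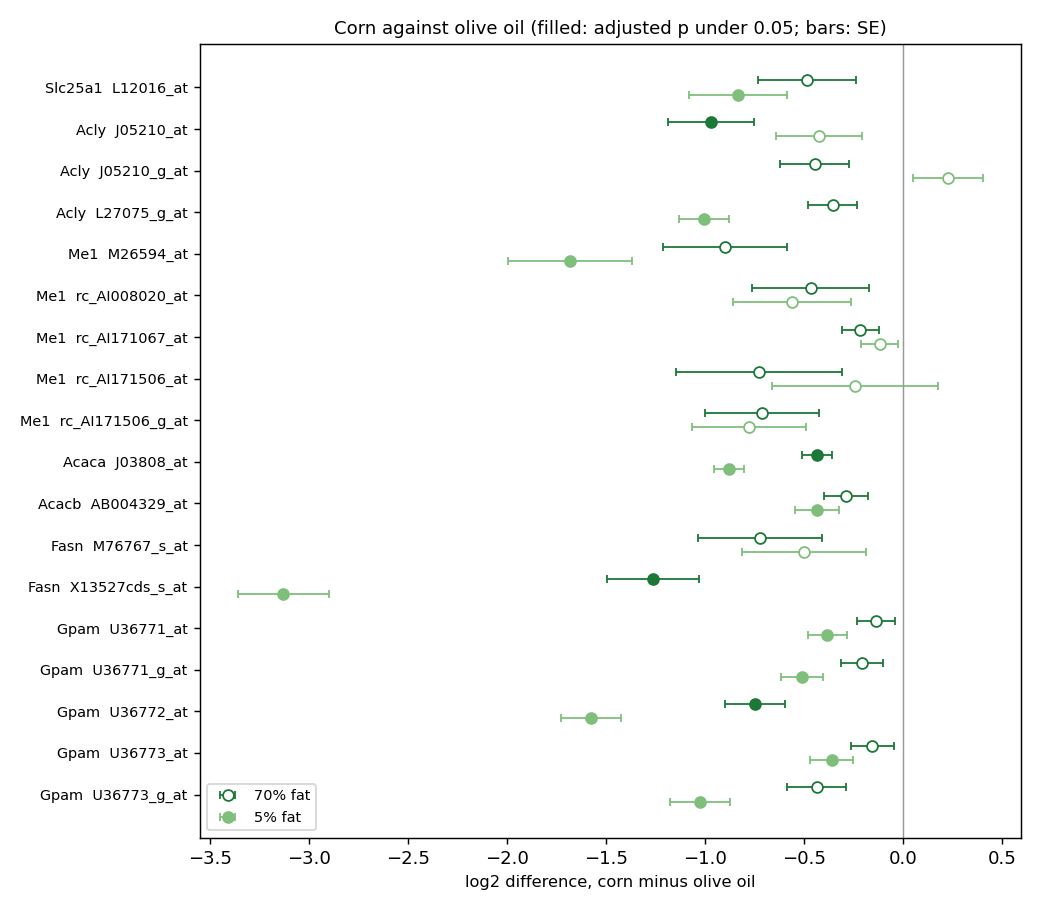
Log2 difference of corn minus olive oil (x axis) for each of the 18 probe sets (rows), at 70% fat and at 5% fat; bars are the standard error of the model and filled points have an adjusted p under 0.05. At 5% fat the second Fasn probe set lies near -3.13 and Acaca near -0.88, and J05210_g_at of Acly, at 0.23, is the one to the right of 0.

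Summed levels of some cell type markers differed between the diets as well. Over the 8 marker lists, 1 probe set was called in a fat effect with a single oil, a rise of the hepatocyte gene Alb (albumin) with corn oil. It was 1 of 24 hepatocyte probe sets, where 1.3% of all probe sets were called higher. In the mean fat effect 1 of 4 endothelial probe sets, of Kdr, was called lower, where 1.03% of all were called lower. Summed over 24 probe sets of 9 of 10 hepatocyte marker genes, the log2 values ran from -1.84 to -0.44 with 70% corn oil and from -4.03 to -3.11 with 5% corn oil, against 0.53 to 2.57 with 70% olive oil and -0.02 to 2.49 with 5% olive oil. For the adipocyte list, 11 probe sets of 6 of 7 genes, the sums ran from -0.85 to 1.23 with 70% corn oil and from 0.70 to 4.21 with 5% corn oil, against -1.03 to 0.72 with 70% olive oil and -1.24 to -1.14 with 5% olive oil. For stellate cells and fibroblasts, 15 probe sets of 8 of 9 genes, they ran from 1.24 to 3.04 with 70% corn oil and from 0.53 to 3.12 with 5% corn oil, against -0.98 to 0.64 with 70% olive oil and -4.04 to -1.12 with 5% olive oil. The hepatocyte sums did not overlap between fat levels with corn oil, nor the adipocyte and stellate sums with olive oil. Between the oils at 5% fat, where 9.36% of all probe sets were called lower and 10.1% higher, 7 of 24 hepatocyte probe sets were called lower and 2 of 24 higher with corn oil. At the same fat level 3 of 11 adipocyte probe sets (of Cfd, Lep and Lpl) and 3 of 15 stellate ones (of Col1a1, Col1a2 and Col3a1) were called higher, and 4 of 10 macrophage probe sets (of C1qb, C1qc and Cd14) lower. The sums of the 2 erythroid probe sets ran from -0.97 to -0.66 with 70% corn oil, below -0.28 to 1.13 with 5% corn oil and -0.21 to 0.35 with 70% olive oil. The hepatocyte sums were lowest with 5% corn oil and next with 70% corn oil, at a mean 3'/5' index of 1.28 and 0.71. The adipocyte and stellate sums were apart between 70% and 5% olive oil, at a mean index of -0.35 and -0.36. A link of the sums to the index was not tested. Marker differences between the oils lie on the arrays that the index separates. None of the 8740 probe sets was called between the oils with the index in the model. In that fit the median SE of the 18 member probe sets was 0.43 at 5% fat, against 0.16 without the index. The lack of calls there thus does not show that a marker difference is absent. The part of these cells in the results was not tested, and since the values are centred they do not show which markers are present or at 0.

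The highest diet was shared by most of the 18 probe sets, and the order of the diets below it was not. The mean was highest with 5% olive oil for 17 of them, and J05210_g_at of Acly was highest with 5% corn oil. The mean was lowest with 70% corn oil for 13 and with 5% corn oil for 5. In all 4 orders occurred, and the commonest were found in 6 probe sets each. For M76767_s_at of Fasn the order from the top was 5% olive, 5% corn, 70% olive and 70% corn oil, and arrays of neighbouring diets overlapped at both ends but not between the fat levels. For X13527cds_s_at and Acaca the order was 5% olive, 70% olive, 5% corn and 70% corn oil, and the corn oil diets alone overlapped. For Slc25a1 and U36773_at of Gpam every pair of neighbours overlapped. Across the 12 arrays, M76767_s_at of Fasn had a Pearson correlation of 0.94 with J05210_at and 0.95 with J05210_g_at of Acly, while X13527cds_s_at of Fasn had one of 0.96 with Acaca, 0.95 with U36772_at of Gpam and 0.92 with L27075_g_at of Acly. The Acly probe sets J05210_g_at and L27075_g_at had a correlation of 0.19. The arrays share diets and the range of the 3'/5' index, so these values are descriptions.

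By the largest correlation over the 12 arrays, the other genes most like M76767_s_at of Fasn were Dlat (0.96), the pyruvate dehydrogenase subunit that carries the acetyl group, Pnpla3 (0.96), a lipase-like protein of lipid droplets, and Pklr (0.95), the liver pyruvate kinase. For J05210_g_at of Acly they were Dlat (0.98), Pklr (0.97) and Pnpla3 (0.97), and for J05210_at of Acly the desaturase Scd (0.96), Pklr (0.94) and Dlat (0.92). For rc_AI171506_g_at of Me1 they were the pyruvate dehydrogenase kinase Pdk1 (0.97), the fructose transporter Slc2a5 (0.92) and Grb14 (0.90), an adaptor that binds the insulin receptor. X13527cds_s_at of Fasn and Acaca had the same 3 genes: the acyl-CoA synthetase Acsl5 (0.95 and 0.94), the kinase Akt1 (0.94 and 0.92) and the lectin Lgals9 (0.94 and 0.93).

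The steps around these enzymes were read through lists of pathway genes, whose counts stand beside 0.801% lower and 1.3% higher calls over all probe sets with corn oil, and 0.309% lower and 0.126% higher with olive oil. In the supply of acetyl-CoA, 9 of 13 genes were measured by 15 probe sets, of which 2 fell with corn oil and 1 with olive oil, all of Dlat, and 0 rose. D10655_at of Dlat fell by 0.85 with corn oil (adjusted p = 0.000516) and fell by 0.58 with olive oil (adjusted p = 0.0160). The median change of the 15 was -0.36 with corn oil and -0.18 with olive oil. In the mean fat effect 5 of the 15 fell, where 1.03% of all probe sets were called lower. The others, beside all 3 of Dlat, were AF093773_s_at of the malate dehydrogenase Mdh1 (-0.48 ± 0.10, adjusted p = 0.0238) and rc_AA892828_at of the pyruvate dehydrogenase subunit Pdhb (-0.35 ± 0.08, adjusted p = 0.0418). Of 6 probe sets for 4 of 10 genes of NADPH supply, 1 rose with corn oil, rc_AA892314_at of the cytosolic isocitrate dehydrogenase Idh1 (0.46 ± 0.08, adjusted p = 0.0148), and 0 were called with olive oil, with medians of -0.21 and -0.30. The other Idh1 probe set was at -0.49 ± 0.26 with corn oil (adjusted p = 0.332).

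Among regulators of acetyl-CoA carboxylase and malonyl-CoA, 5 of 11 genes were measured by 5 probe sets. Cpt1a, the carnitine palmitoyltransferase that malonyl-CoA inhibits, rose by 1.42 ± 0.26 with corn oil (adjusted p = 0.0173), and its change with olive oil was 0.56 ± 0.26 (adjusted p = 0.595). The difference between these changes did not pass the test (0.87 ± 0.36, adjusted p = 0.390). The other 4 had no call in either fat effect, and the median of the 5 was 0.22 with corn oil and 0.21 with olive oil.

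Transcriptional regulators of the pathway had no call with fat: 0 of 13 probe sets, for 9 of 14 genes, with either oil, at medians of 0.06 with corn oil and -0.02 with olive oil, a count near those shares of all probe sets. Srebf1, the sterol regulatory element binding factor that drives lipogenic genes, was at a change of 0.13 ± 0.25 with corn oil (adjusted p = 0.824) and 0.06 ± 0.25 with olive oil (adjusted p = 0.976). Between the oils Srebf1 was lower with corn oil, by -0.87 ± 0.25 at 70% fat (adjusted p = 0.0482) and -0.95 ± 0.25 at 5% fat (adjusted p = 0.0183), on the arrays that the index separates. Calls in this list went both ways. At 70% fat, 2 of 13 were higher with corn oil (of Thrb and Usf1) and 1 lower (of Srebf1). Over all probe sets 3.96% were called higher there and 4.55% lower. At 5% fat, 2 of 13 were higher (of Thrb and Usf1) and 3 lower (of Insig1, Srebf1 and Usf2). Over all probe sets 10.1% were called higher there and 9.36% lower. Insig1, which holds the sterol regulatory element binding proteins in the endoplasmic reticulum, had mean fat changes of -0.49 ± 0.17 for L13619_at (adjusted p = 0.193) and -0.69 ± 0.19 for L13619_g_at (adjusted p = 0.0890). Mlxipl, Thrsp, Elovl6 and Mlycd were not measured under their own symbols.

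Downstream of Fasn, elongation and desaturation were read by 13 probe sets of 5 of 11 genes, of which 2 fell with corn oil, 3 fell with olive oil and 0 rose, at medians of -0.21 and -0.05. Both Scd probe sets were among them, and rc_AI175764_s_at of this stearoyl-CoA desaturase fell by 6.19 ± 0.31 with corn oil (adjusted p = 1.2e-06) and fell by 2.97 ± 0.31 with olive oil (adjusted p = 0.00102). The third call with olive oil was rc_AA875269_at of Scd2, a related desaturase, which fell by 1.07 ± 0.15 (adjusted p = 0.00839). In glycerolipid synthesis beyond Gpam, 9 probe sets of 5 of 15 genes gave 0 calls in either fat effect, near the shares over all probe sets, at medians of 0.17 with corn oil and 0.07 with olive oil. In the mean fat effect, where 1.03% of all probe sets were called lower, 1 of the 9 was called. AB012933_g_at of the acyl-CoA synthetase Acsl5 fell by 0.68 ± 0.12 there (adjusted p = 0.00979).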

How the data were processed

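Liver RNA of 12 pools, 3 for each of 4 diets, was amplified from 8 ug of total RNA with a biotin label and read on single-colour Affymetrix rat arrays, per the labels' protocols. How many rats went into a pool is not stated in these sources, and p-values describe only how pools of a diet vary. The authors deposited log2 values made with GCOS and RMA, per the submitters' processing notes, which give no version; the base of 2 is that of RMA and is not written in the table. In the values as deposited, 100% of probe sets had a median of 0 over the 12 arrays (within 1e-06), so no level is known, and a planned filter on low values could not be run. Array medians ran from -0.03 to 0.06, and the closest pair of arrays differed by 0.195 log2 (root mean square), so none was a duplicate. For arrays, their number limits the precision.

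After 59 array controls were left out, 8740 probe sets were tested, of which 7006 had 1 gene symbol, 308 had several and 1426 were unnamed here. Of the named, 6985 took their symbol from the RefSeq annotation of GRCr8. A further oil in the labels' protocol was not analysed here. limma 3.58.1 in R 4.3.3 fitted a mean per diet over all 12 arrays (8 residual degrees of freedom, eBayes). Fat effects (70% minus 5%, per oil), oil differences (corn minus olive, per fat level), the difference between the fat effects and their mean were taken as contrasts. P-values were two-sided and adjusted by Benjamini-Hochberg over all probe sets of a contrast, with a threshold of 0.05. The code was tested on simulated data. Pool numbers were not treated as a pairing in the main fit. Of 18 same-numbered pairs, 3 had correlated deviations over 0.1 (range -0.19 to 0.23). Pairs of unlike number were not compared, so this does not show that pools were unpaired.

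The members, the gene lists and the markers were chosen with earlier results of these data known. Genes named beside the 7 members are the 3 most correlated with a member probe set called in a fat effect or their mean (given here for a part of them), list members called in one of these (up to 4 a list), and 8 regulators and targets named wherever measured. Alternatives were a second quantile normalization, array centring, a trend with robust moderation, the replicate block, the 3'/5' index as covariate, the arrays of a contrast alone, 1 value per gene and leaving out each array.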

Additional observations from a re-analysis of the deposited data

How the results depend on the processing

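Counts of called probe sets moved with the processing, and their causes were not tested unless the construction shows it. Counts per gene are out of 7 member genes and 4736 genes, and the other counts out of 18 and 8740 probe sets. A smaller count per gene is therefore not in itself a loss of calls. Of the 18 probe sets, those called in the fat effect with corn oil numbered 6, and 3 when only the arrays of that contrast were fitted. With 1 value per gene 3 of 7 genes were called. Over all probe sets that contrast gave 184 calls, 51 after a second quantile normalization, 40 with the 3'/5' index, 53 with the contrast's arrays alone and 120 per gene. With olive oil the members called numbered 5, but 9 after the second quantile normalization, 8 with the contrast's arrays alone and 3 per gene; all calls numbered 38, but 98 after the second quantile normalization, 97 with the contrast's arrays alone, 22 with each array centred and 64 with the index. For corn minus olive oil at 70% fat, 4 members and 744 of all became 0 and 0 with the index, with 334 of all for the contrast's arrays alone and 328 per gene. At 5% fat, 11 members and 1704 of all became 0 and 0 with the index, and 5 and 801 per gene. The mean fat effect called 9 members and 199 of all, 123 of all with the index, and per gene 4 of 7 members and 103 of 4736 genes. Slc25a1 changed from -0.83 at 5% fat between the oils to 0.78 with the index.

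Leaving out 1 array gave 3 to 6 members and 59 to 348 of all with corn oil, 2 to 9 and 10 to 69 with olive oil, 2 to 7 and 311 to 1162 between the oils at 70% fat, 7 to 12 and 1115 to 2065 at 5% fat, 8 to 9 and 116 to 233 for the mean fat effect, and 0 to 1 and 0 to 10 for the difference between fat effects. With the replicate block the members called were 5, 4, 4, 10, 0 and 9 in the order corn oil, olive oil, oils at 70%, oils at 5%, difference of fat effects and mean. In the same order, 221, 37, 650, 1625, 1 and 187 of all 8740 probe sets were called. Of the single values, 1739 kept their side of the threshold, 94 lost it, 29 gained it, 1 reversed, and 45 that were not called changed sign. The filter on low values was not run, since centred values hold no level.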
